A study of Mus musculus with 61 samples.

Results

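Of the 45101 probe sets on the array, 56 carried only immunoglobulin gene symbols in the platform annotation. A probe set was taken when every symbol it carried began with Igh, Igk or Igl, and the unrelated genes Ighmbp2, Igll1 and Iglon5 were left out. Of the 56, 43 carried a single symbol (20 different symbols) and 13 carried several. They were grouped by chain into 10 classes. The heavy chain probe sets were 3 for Igha, 11 for Ighm, 4 for Ighg3, 1 for the variable segment Ighv14-2 and 4 with several heavy chain symbols. The light chain probe sets were 22 for kappa variable segments, 3 that list the kappa constant region Igkc with 4 kappa segments, 4 named only Igk after the locus, 1 for Iglc1 with Iglv1 and 3 for Iglv1. None was named for the delta, epsilon, gamma 1 or gamma 2 chains, so those isotypes were not analysed by name here. The study does list an IgG2a heavy chain entry, Igh-1a, among the genes lowered by treatment. None of the 56 carried that symbol, but the probe set named Ighv14-2 had the same fold, as given below.

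An antibody is built from paired heavy and light chains, and each chain has a constant region and a variable region joined from separate gene segments. The heavy chain constant region sets the isotype: mu gives IgM, which naive B cells carry at their surface, and alpha gives IgA, the main antibody of tears, saliva and other secretions. Plasma cells, the antibody-secreting end state of the B cell lineage, hold very large amounts of immunoglobulin mRNA, and in lacrimal and salivary glands they supply the IgA that the epithelium passes into the fluid.

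The arrays came from male NOD mice, an inbred strain used as a model of Sjögren's syndrome, whose males develop inflammation of the lacrimal glands and only rarely salivary gland disease, per the study. Untreated mice (NT) were sampled at weeks 8, 12, 14 and 16. Other mice received weekly intraperitoneal injections from week 8 of LTBR-Ig, a soluble lymphotoxin-beta receptor fused to a mouse IgG1 Fc that blocks the pathway, or of MOPC-21, a control mouse monoclonal IgG1, and were sampled at week 12 after 4 weeks of injections or at week 16 after 8 weeks. Each of the 8 groups was profiled in lacrimal gland (31 arrays) and in salivary gland (30 arrays), with n = 4 arrays a group except lacrimal NT week 12 (n = 3) and salivary LTBR-Ig week 12 (n = 2). Lacrimal RNA came from both glands of a mouse, and salivary RNA from the submandibular, sublingual and parotid glands together, with the cervical lymph nodes dissected away. The injected agents are proteins and add no immunoglobulin transcript. All values are log2 intensities after GCRMA, and values under 4 were taken as near background. A change was called at a fold of 2 or more with a Benjamini-Hochberg adjusted p under 0.05 in limma over all probe sets tested. Counts by unadjusted p and of groups without overlap cover the immunoglobulin probe sets only. The matching share of all probe sets was not taken, so these counts are descriptive. Of the 56 immunoglobulin probe sets, 41 of the 20077 tested in lacrimal gland and 23 of the 19617 tested in salivary gland passed the filter on low values. Levels of different probe sets are not compared, since each binds with its own strength, and 17 of the 56 are of a kind (ending in x_at) that may take up related segments as well. Which transcripts the others bind, 4 of them ending in s_at and 6 in a_at, was not checked.

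Some arrays stood apart. Salivary NT week 8 replicate 1 was over 1 log2 unit above each of the other 3 arrays of its group for 15 of the 56 probe sets. In that array the mean of 14 B cell genes was 3.53 against 2.49 to 2.68 in the other 3, and the mean of 14 genes of antibody-secreting cells was 6.91 against 6.34 to 6.47. Amy1, the salivary amylase gene, was above 8 in 8 of the 31 lacrimal arrays. It was uneven in salivary gland too. There it was above 8 in both LTBR-Ig week 12 arrays, MOPC-21 week 12 replicates 3 and 4, NT week 12 replicate 4 and NT week 16 replicate 4. The mean of 6 salivary gland marker genes, 11.18 to 14.75 in the salivary arrays, ran from 3.18 to 12.70 in the lacrimal arrays. The lacrimal acinar genes measured, Pip and Aqp5, did not set the tissues apart, with means of 12.37 to 13.00 in the lacrimal groups and 12.67 to 13.17 in the salivary groups. The main changes and calls that rest on salivary NT week 8 replicate 1 or on the lacrimal arrays with Amy1 above 8 are given with and without them. Group means and counts of probe sets above a level are given with all arrays. The salivary arrays with Amy1 above 8 were not left out as a set.

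At week 8 few immunoglobulin probe sets were above background in either gland, and by week 12 most were in lacrimal gland. Group means above 4 were found for 14 of the 56 probe sets in lacrimal gland at week 8, and for 35, 35 and 37 in untreated mice at weeks 12, 14 and 16. In salivary gland the numbers were 11 at week 8, then 19, 17 and 19. Means above 10 were reached by 0 probe sets at week 8 in either gland, by 9, 11 and 13 in lacrimal gland at weeks 12, 14 and 16, and by 7 in salivary gland at each of these weeks. After 8 weeks of LTBR-Ig, 36 of 56 were still above 4 in lacrimal gland, and 11 in salivary gland, the number seen there at week 8. The levels were not those of week 8: salivary Igha means were 7.56 to 9.42 after LTBR-Ig and 5.19 to 6.34 at week 8. Both the salivary week 8 count and these week 8 means include replicate 1, which stood high, and were not taken without it. Ighm 1427351_s_at, for example, was 9.06 in that array and 3.20 to 3.94 in the rest of its group. Of all probe sets on the array, 38.2% to 40.5% had a mean above 4 in each group. Over all arrays, 11 of the 56 were above 4 in none, 1 was above 4 in every array, and 19 were above 10 in at least 1.

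**Figure D1:**
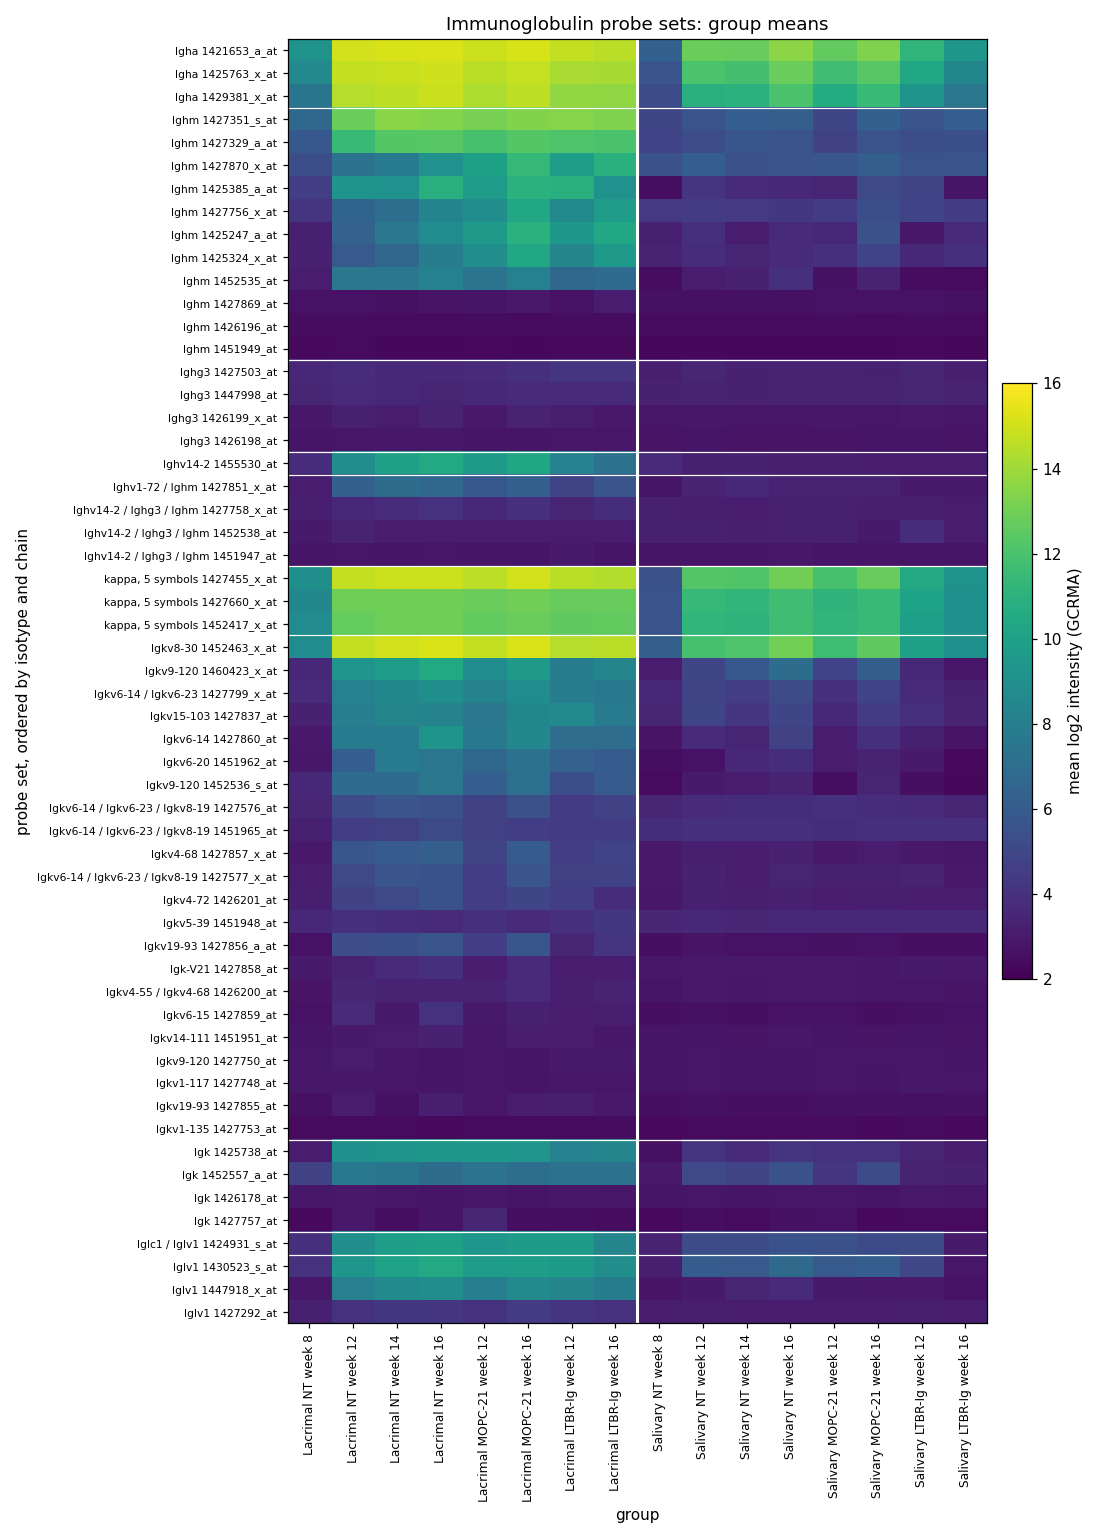
Mean log2 intensity (colour, scale 2 to 16) of each of the 56 immunoglobulin probe sets (rows, ordered by isotype and chain) in the 8 lacrimal and 8 salivary groups (columns). In lacrimal gland 35 to 37 rows were above 4 in every group after week 8, while in salivary gland 11 to 20 were, with 11 in the LTBR-Ig week 16 column.

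In untreated lacrimal gland, alpha, mu, kappa and lambda chain transcripts all rose from week 8 to week 12 and stayed high. In bulk tissue, more cells of a type and more RNA per cell cannot be told apart. Igha (1421653_a_at), the IgA heavy chain constant region, was 9.50, 9.57, 7.29 and 10.41 at week 8, then 15.01, 15.25 and 14.88 at week 12 and 15.19, 15.18, 15.30 and 15.41 at week 16. Every array from week 12 on lay above every week 8 array, and the later values were close to the top of the scale, where the highest value in the whole table was 16.38. The rise from week 8 to week 16 was 67.4-fold (log2 change 6.07). A second Igha probe set, 1429381_x_at, had the largest rise of all 56, 173-fold (log2 change 7.43, SE 0.41, adjusted p = 2.44e-13).

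The mu chain and the variable segments gave a similar course. Ighm (1427351_s_at), the IgM constant region, was 6.93, 6.54, 3.97 and 9.36 at week 8, 12.39, 12.11 and 13.87 at week 12 and 13.66, 13.41, 13.16 and 13.31 at week 16. The groups did not overlap, and the rise to week 16 was 103-fold (log2 change 6.69, SE 0.65, adjusted p = 5.83e-09). Ighv14-2 (1455530_at), by the annotation the only heavy chain variable segment with a probe set of its own, was 3.47, 4.08, 3.19 and 4.45 at week 8, near background. It reached 8.14, 7.73 and 10.69 at week 12 and 10.05, 10.26, 10.78 and 11.03 at week 16, a rise of 106-fold (log2 change 6.73, SE 0.61, adjusted p = 2.29e-09). Igkv9-120 (1460423_x_at), a kappa variable segment, went from 3.24, 4.10, 3.14 and 3.97 at week 8 to 9.54, 10.44, 10.30 and 11.69 at week 16, 118-fold. Iglv1 (1430523_s_at), a lambda variable segment, went from 3.85, 4.55, 2.73 and 4.90 to 10.18, 9.99, 10.74 and 10.79, 85.6-fold. For these 3 variable segments no week 16 array came near the range of week 8. Since that range, with a highest value of 4.90, lay at or little above background, the folds depend on values there.

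Of the 56 probe sets, 35 were called higher at week 12 than at week 8, where 6.07% of all probe sets tested were, and 36 at week 16, where 12.1% were. These comparisons share the week 8 arrays, and none of the 56 was called lower in either. The median change at week 16 over the 41 tested was 4.60, against -0.07 over all probe sets tested. By class, the week 16 calls were 3 of 3 for Igha, 8 of 11 for Ighm, 1 of 1 for Ighv14-2, 1 of 4 with several heavy chain symbols, 3 of 3 for the Igkc group, 14 of 22 for kappa variable segments, 2 of 4 for Igk, 1 of 1 for Iglc1 with Iglv1 and 3 of 3 for Iglv1. Most of the rise was there by week 12: the Igha probe set 1429381_x_at was already 128-fold above week 8 and Ighm 1427351_s_at 68.3-fold. Without the 8 lacrimal arrays with Amy1 above 8, 35 probe sets were called at week 16 and Ighv14-2 was 7.11 log2 units higher. The mean of the 6 salivary gland markers moved with the weeks too, from 3.18 to 3.55 in the week 8 arrays to between 3.98 and 10.82 at week 16, and its part in the rise was not tested beyond leaving out these arrays.

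The called rises of kappa variable segments are given for each probe set. Of the 22, only Igkv8-30 1452463_x_at had a week 8 mean above 4, at 8.80. Its week 16 mean of 15.21 was close to the top of the scale. The sizes of the other rises depend on values at background. After Igkv9-120 1460423_x_at, the next of the 14 called at week 16 were Igkv8-30 1452463_x_at (84.8-fold, log2 change 6.41), Igkv6-14 1427860_at (78.9-fold, 6.30) and Igkv6-14 with Igkv6-23 1427799_x_at (39.9-fold, 5.32). Igkv15-103 1427837_at rose 32.1-fold, Igkv6-20 1451962_at 24.3-fold, Igkv4-68 1427857_x_at 9.77-fold and Igkv19-93 1427856_a_at 8.04-fold. The smallest called rise was that of Igkv6-15 1427859_at, 2.51-fold (log2 change 1.33, adjusted p = 0.000474). Probe sets of a single segment could differ: of the 3 for Igkv9-120, 1452536_s_at rose 16.0-fold and 1427750_at stayed between 2.71 and 3.35 in all 61 arrays. Igkv5-39 1451948_at changed by 0.12 (adjusted p = 0.637).

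The 4 Ighg3 probe sets, for the gamma 3 constant region of IgG3, gave no such course. Their arrays ranged from 2.65 to 4.50 over the whole series. Only 1427503_at passed the filter in lacrimal gland, with means of 3.58 at week 8 and 3.53 at week 16 (log2 change -0.05, adjusted p = 0.852), and its unadjusted p was not under 0.05 either. The remaining probe sets that passed nowhere, among them 3 named Ighm (1427869_at, 1426196_at and 1451949_at), stayed near background in all groups, and such values do not show that the transcripts were absent.

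**Figure D2:**
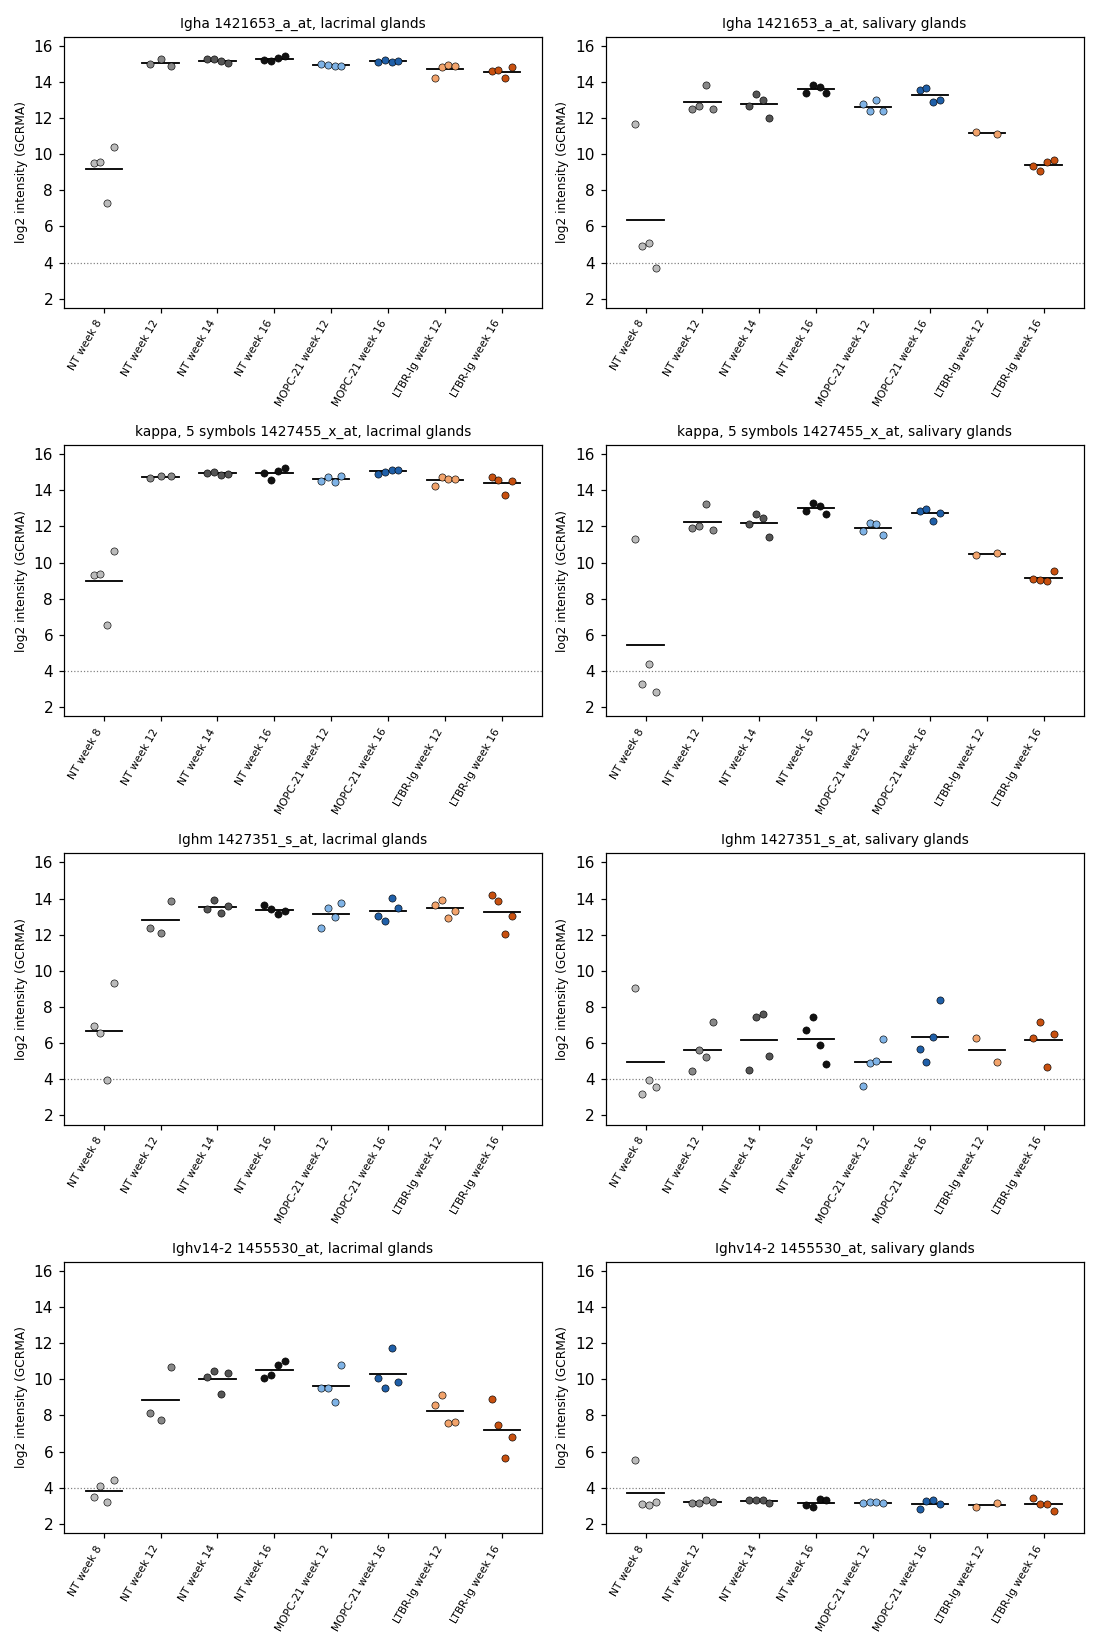
Log2 intensity of 4 probe sets (Igha 1421653_a_at, the Igkc group 1427455_x_at, Ighm 1427351_s_at and Ighv14-2 1455530_at) in every array of the 8 groups, lacrimal and salivary; each point is an array, the short line the group mean and the dotted line the value of 4. From week 12 on, Igha and the Igkc group were above 8 in the arrays of both glands, while salivary Ighm lay below lacrimal Ighm and salivary Ighv14-2 near background.

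In untreated salivary gland the alpha, kappa and lambda chains rose with age as well, while most mu chain probe sets gave no call. Igha 1421653_a_at was 11.67, 4.89, 5.10 and 3.68 at week 8, 12.50, 12.64, 13.83 and 12.51 at week 12 and 13.40, 13.82, 13.69 and 13.41 at week 16. The week 8 arrays, replicate 1 included, lay below all later untreated ones. The change to week 16 was 151-fold (log2 change 7.24, SE 0.90, adjusted p = 4.89e-07), and 520-fold (log2 change 9.02) without that replicate. The Igkc group probe set 1427455_x_at, which carries the symbols Igkv6-23, Igkv4-53, Igkv8-30 and Igkj1 besides Igkc, was 11.31, 3.29, 4.39 and 2.81 at week 8 and 12.85, 13.30, 13.12 and 12.70 at week 16. It rose 186-fold (log2 change 7.54, SE 0.98, adjusted p = 9.78e-07), and 722-fold without replicate 1 of week 8. Iglv1 1430523_s_at, at 4.82, 2.67, 2.53 and 2.67 at week 8, reached 5.84, 6.81, 7.52 and 7.30 at week 16, 12.9-fold higher (adjusted p = 5.11e-05). In all 3 cases replicate 1 of week 8 was the highest array of its group and still below every week 16 array.

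Ighm 1427351_s_at, in contrast, was 9.06, 3.20, 3.94 and 3.59 in salivary gland at week 8 and 6.75, 7.42, 5.88 and 4.85 at week 16. The groups overlapped through replicate 1 of week 8, and the log2 change of 1.28 had an interval (95%) of -0.77 to 3.33 with an adjusted p of 0.349. Without that array, this probe set (log2 change 2.65, adjusted p = 0.0159) and Ighm 1427329_a_at (1.78, adjusted p = 0.00564) were called higher. At week 12 a single Ighm probe set, 1425385_a_at, was called with the array kept in (log2 change 1.64, adjusted p = 0.0335), with values of 4.40, 3.91, 2.65 and 5.58, some of them under 4. Ighv14-2 was between 2.71 and 3.41 in every salivary array except that same week 8 replicate, at 5.53.

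Over all 56, 14 were called higher in salivary gland at week 12 (3.49% of all probe sets tested) and 15 at week 16 (4.29%). The median change of the 23 tested at week 16 was 2.02, against -0.04 over all probe sets tested. The week 16 calls were 3 of 3 for Igha, 3 of 3 for the Igkc group, 5 of 22 for kappa variable segments, 2 of 4 for Igk, 1 of 1 for Iglc1 with Iglv1, and 1 of 3 for Iglv1. For Ighm the count was 0 of 11, with 7 tested in limma and 0 of these at an unadjusted p under 0.05. The Ighg3, Ighv14-2 and several-symbol heavy chain probe sets did not pass the filter there.

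The glands were also compared directly in untreated mice. At week 8, 10 of the 56 probe sets were called higher in lacrimal than in salivary gland, where 7.19% of all 21626 tested were: the 3 for Igha, the 3 of the Igkc group, 2 for kappa variable segments, Ighm 1425385_a_at and Igk 1452557_a_at. Only 3 of these 10 had groups that did not overlap, namely the last named pair and the second Igkv9-120 probe set 1452536_s_at. Igk 1452557_a_at was 4.37, 4.75, 4.93 and 4.81 in lacrimal and 3.85, 2.64, 2.67 and 2.73 in salivary gland. Every lacrimal value of this probe set was above the salivary ones, of which replicate 1 was the highest. The count was 1 under the posterior probability rule and 2 in a fit on only the groups compared. Without salivary replicate 1 it was 13, and the lacrimal level of Igha 1421653_a_at was 24.8-fold the salivary level.

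At week 16, 35 of the 56 were called higher in lacrimal than in salivary gland, against 11.9% of all tested, and in all 35 the arrays of the tissues did not overlap. For Ighv14-2, at background in salivary gland, the difference was 164-fold (log2 difference 7.36, adjusted p = 4.47e-18), and for Ighm 1427351_s_at 143-fold (7.16). All 8 Ighm probe sets that were tested were called, with log2 differences of 3.44 to 7.21. For Igha 1421653_a_at the difference was 3.22-fold (1.69, SE 0.70, adjusted p = 0.0359), with lacrimal values already close to the top of the scale. Of the Igkc group, 1427455_x_at was called (1.95, adjusted p = 0.0291), and the other two probe sets were not, with differences of 1.22 (interval -0.20 to 2.64, adjusted p = 0.140) and 1.21 (-0.22 to 2.64, 0.146). Iglv1 1430523_s_at differed 11.8-fold (3.56) and Igk 1425738_at 38.2-fold (5.25). The sizes were not tested between chains, and whether saturation compressed them for the brightest probe sets was not tested.

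The mean of 14 B cell genes was 2.82 in lacrimal gland at week 8 and 7.87 at week 16, and 13 of the 14 were called higher. In salivary gland the group means of that list stayed at 2.57 to 2.83 in all 8 groups, and 0 of the 14 genes had a group mean above 4. Jchain, the peptide that joins IgA and IgM into polymers, rose in both glands, 140-fold in lacrimal (log2 change 7.13) and 47.9-fold in salivary gland (5.58). Of 14 antibody-secreting cell genes, 6 were called higher in lacrimal gland at week 16 and 1, Jchain, in salivary gland. In each gland 8 of these 14 had group means above 4 already at week 8, when few immunoglobulin probe sets did. How much of this list comes from antibody-secreting cells was not tested. The 6 genes measured of V(D)J recombination and the surrogate light chain, which act in B cell precursors, were above 4 in no group. Whether numbers of these cells account for the immunoglobulin values was not tested.

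After 8 weeks of LTBR-Ig, the main immunoglobulin chains of lacrimal gland stayed high, and 6 probe sets, 1 of them named Ighm, were lower than with MOPC-21. Igha 1421653_a_at was 14.59, 14.63, 14.21 and 14.81 with LTBR-Ig and 15.09, 15.23, 15.10 and 15.13 with MOPC-21. All LTBR-Ig arrays were below all MOPC-21 arrays, by 0.57 log2 units (interval -1.26 to 0.12 for the change, adjusted p = 0.209), which was not called. Ighm 1427351_s_at was 14.21, 13.86, 12.03 and 13.02 against 13.03, 12.77, 14.06 and 13.49. These overlapped fully, with a log2 change of -0.06 (interval -1.38 to 1.27, adjusted p = 0.956). The Igkc group probe set 1427455_x_at, at 14.71, 14.58, 13.76 and 14.52 against 14.92, 15.01, 15.11 and 15.11, changed by -0.64 (interval -1.53 to 0.24, adjusted p = 0.269). Its LTBR-Ig arrays were likewise all lower, without a call.

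Ighv14-2 behaved otherwise. Its 4 values were 8.90, 7.49, 5.66 and 6.80 with LTBR-Ig at week 16 and 10.09, 9.50, 11.73 and 9.86 with MOPC-21. No array overlapped, and the level was 8.47-fold lower (log2 change -3.08, SE 0.61, interval -4.34 to -1.82, adjusted p = 0.00524). Against untreated mice of week 16 it was 9.95-fold lower (log2 change -3.31, adjusted p = 0.00899), and it was still 10.7-fold above untreated mice of week 8 (3.42, adjusted p = 0.000105). After 4 weeks, at week 12, the values were 8.58, 9.11, 7.57 and 7.64 with LTBR-Ig and 9.52, 9.52, 8.75 and 10.80 with MOPC-21. They overlapped between 8.75 and 9.11, and the change of -1.42 (interval -2.68 to -0.16) had an adjusted p of 0.492. The study lists an IgG2a heavy chain entry, Igh-1a, as 8.47-fold down with LTBR-Ig, the same fold as Ighv14-2 here. Of the immunoglobulin probe sets tested in this comparison no other fell as far, the next being an Ighm one with a log2 change of -1.85. Whether the study's entry is this probe set was not tested, and the variable segment name rests on the annotation alone. The probe set may thus report the IgG2a heavy chain rather than a variable segment.

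Against MOPC-21 at week 16, 6 of the 56 were called lower, or 6 of the 41 tested, where 5.54% of all probe sets tested were, and 16 had an unadjusted p under 0.05. Besides Ighv14-2 these were Iglc1 with Iglv1 1424931_s_at (log2 change -1.28, adjusted p = 0.0454), Ighm 1452535_at (-1.23, 0.0186), Igkv9-120 1460423_x_at (-1.22, 0.0403), Igkv6-14 with Igkv6-23 1427799_x_at (-1.15, 0.0119) and a probe set for Igkv6-14, Igkv6-23 and Igkv8-19, 1427577_x_at (-1.01, 0.02). The groups overlapped for each of these 5. The threshold fell among the kappa variable segments, since Igkv6-14 1427860_at (-1.47, adjusted p = 0.0501), Igkv6-20 1451962_at (-1.18, 0.0502) and Igkv19-93 1427856_a_at (-1.57, 0.0506) lay just outside it. Igkv6-14 1427860_at was 8.83, 6.31, 5.83 and 7.14 with LTBR-Ig and 7.99, 8.02, 9.56 and 8.42 with MOPC-21, where LTBR-Ig replicate 1 was above 3 of the 4 MOPC-21 arrays. Ighm 1452535_at, for example, was 7.68, 6.93, 6.02 and 7.04 with LTBR-Ig and 7.84, 7.43, 8.55 and 8.77 with MOPC-21. Of the Igha probe sets 0 of 3 were called by limma, with 1 at an unadjusted p under 0.05, and of the Igkc group 0 of 3, with 0. Against untreated mice of week 16, which share the LTBR-Ig arrays, 10 were called lower (3.77% of all tested), among them Igkv9-120 1460423_x_at, 4.32-fold lower (log2 change -2.11, adjusted p = 0.0128). Against untreated mice of week 8, 33 were called higher after LTBR-Ig (6.06% of all tested), with Igha 1421653_a_at at 41.4-fold (log2 change 5.37, adjusted p = 5.80e-12).

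These falls rested on few arrays. Without LTBR-Ig replicate 3, whose Amy1 value was 15.1, the call against MOPC-21 held for Ighv14-2 alone (log2 change -2.56, adjusted p = 0.0324), and without MOPC-21 replicate 3 a single probe set was called. Without the 8 lacrimal arrays with Amy1 above 8, which include LTBR-Ig replicates 3 and 4, 0 were called in limma and Ighv14-2 changed by -2.10 (adjusted p = 0.227). The mean of the 6 salivary gland markers was 6.66 to 11.93 in the LTBR-Ig arrays and 3.75 to 5.32 in the MOPC-21 arrays of week 16, and its part in these changes was not tested. The B cell list moved with them: 13 of its 14 genes were called lower, among them Ms4a1, the CD20 gene (log2 change -2.02, adjusted p = 0.0169), and the list mean was 4.40 to 7.06 against 7.08 to 8.97. Of the antibody-secreting cell list 5 of 14 were called lower, Jchain (log2 change -1.20, adjusted p = 0.0455), Mzb1 (-1.92, 0.00524), Irf4, Pou2af1 and Slamf7. The others tested were not called, among them Derl3 (0.68), Fkbp11 (0.58) and Xbp1 (0.22), and the median log2 change of that list was 0.05. Since 8 of the 14 were above 4 in lacrimal gland already at week 8, that median may not follow antibody-secreting cells.

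In salivary gland, 8 weeks of LTBR-Ig left alpha chain transcripts, and part of the kappa and lambda chain ones, far below their level with MOPC-21. Igha 1421653_a_at was 9.36, 9.06, 9.57 and 9.70 with LTBR-Ig and 13.53, 13.67, 12.86 and 13.02 with MOPC-21. The groups lay over 3 log2 units apart, and the level was 14.4-fold lower (log2 change -3.85, SE 0.90, interval -5.70 to -2.0). It did not pass the adjusted test (adjusted p = 0.134) in a fit whose spread is shared with the week 8 group. With week 8 replicate 1 left out of that fit the SE was 0.30 and the adjusted p 1.65e-08. The Igkc group probe set 1427455_x_at was 9.11, 9.06, 8.95 and 9.53 with LTBR-Ig against 12.86, 12.99, 12.29 and 12.76, again well apart. Its change of -3.56 (interval -5.58 to -1.54) had an adjusted p of 0.292 with the array in the fit and 5.23e-08 without it.

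The 4 probe sets called with all arrays in the fit were light chain ones. Igkv9-120 1460423_x_at was 2.91, 2.55, 3.43 and 2.56 with LTBR-Ig and 6.82, 5.80, 6.10 and 5.89 with MOPC-21, 9.75-fold lower (log2 change -3.29, SE 0.65, adjusted p = 0.0496). Iglv1 1430523_s_at was 2.90, 2.93, 2.71 and 2.95 against 6.55, 7.04, 5.38 and 5.78, 9.95-fold lower (-3.31, SE 0.64, adjusted p = 0.0434). For both, all LTBR-Ig arrays were at background. Igk 1452557_a_at, at 3.30, 3.29, 3.29 and 3.30 against 5.36, 5.27, 5.24 and 5.10, was 3.86-fold lower (-1.95, SE 0.35, adjusted p = 0.0426). Igkv6-14 with Igkv6-23 1427799_x_at, at 3.23, 3.15, 3.20 and 3.51 against 5.13, 4.71, 4.34 and 5.11, was 2.92-fold lower (-1.55, SE 0.24, adjusted p = 0.0214). In all 4 the groups did not overlap and the LTBR-Ig arrays were below 4, so the folds depend on the background values. The other lambda probe sets tested were not called, with or without week 8 replicate 1. Iglc1 with Iglv1 1424931_s_at changed by -2.11 and Iglv1 1447918_x_at by -0.29.

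These 4 of the 56 (4 of 23 tested) made up most of the 7 probe sets called lower in the whole tissue, 0.0357% of those tested, and 20 of the 23 had an unadjusted p under 0.05. The remaining 3 were Jchain and a pair with no gene in the annotation used. Jchain was 5.65, 6.24, 5.92 and 6.02 with LTBR-Ig and 9.82, 9.83, 8.93 and 9.53 with MOPC-21, 11.9-fold lower (log2 change -3.57, adjusted p = 0.0434). These calls rested on every compared array: of the LTBR-Ig arrays, leaving out replicate 1 or 3 gave 0, replicate 4 gave 1 and replicate 2 gave 2, and of the MOPC-21 arrays, leaving out replicate 2 or 4 gave 0, replicate 3 gave 1 and replicate 1 gave 3. The count was also 0 with a floor of 6, 0 with no filter, 1 with a replicate block, 2 under the posterior probability rule and 12 in a fit on only the groups compared. Without week 8 replicate 1, 11 of the 56 were called, of 25 in all: 3 for Igha, 3 of the Igkc group, 3 kappa variable, 1 Igk and 1 Iglv1. No Ighm probe set was among them. Ighm 1427351_s_at was 6.31, 7.18, 4.70 and 6.52 with LTBR-Ig and 5.70, 4.93, 6.32 and 8.39 with MOPC-21, widely overlapping, with a change of -0.16 (interval -2.21 to 1.89). Other Ighm probe sets fell further: over the 7 tested the median change was -0.87 and the lowest -2.29. Of these 7, 5 had an unadjusted p under 0.05 in limma. Against untreated mice of week 16, a comparison that shares the LTBR-Ig arrays, 5 of the 56 were called lower (0.0561% of all tested). These were the same 4 and Igha 1429381_x_at, 21.6-fold (log2 change -4.43, adjusted p = 0.0251), and 11 were called without week 8 replicate 1. The median change of the 7 Ighm probe sets from untreated was -0.002, with 0 at an unadjusted p under 0.05. The B cell list was near background in all salivary groups, so it could not be seen to move with these values.

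After 4 weeks of LTBR-Ig the salivary group had only 2 arrays, with Igha 1421653_a_at at 11.22 and 11.11 against 12.79, 12.38, 12.99 and 12.38 with MOPC-21. Both were below all MOPC-21 arrays and above all LTBR-Ig arrays of week 16, with a change of -1.47 (interval -3.74 to 0.80, adjusted p = 0.601). Of the 56, 0 were called lower there (0.0153% of all tested), and 0 had an unadjusted p under 0.05. Leaving week 8 replicate 1 out of the fit gave 1. Amy1 was 14.88 and 11.77 in these LTBR-Ig arrays and above 8 in MOPC-21 replicates 3 (10.95) and 4 (8.52). Its part in this comparison was not tested.

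The effect of LTBR-Ig against MOPC-21 at week 16 was compared between the glands within a single fit. For Igha 1421653_a_at the lacrimal change was 3.28 log2 units less negative than the salivary one (SE 0.99, adjusted p = 0.0450), and for Igha 1425763_x_at also 3.28 (SE 1.0, adjusted p = 0.0471). For Igk 1452557_a_at, which in lacrimal gland was 7.24, 7.18, 7.17 and 7.25 with LTBR-Ig against 6.91, 7.10, 6.63 and 7.64, the difference was 2.09 (SE 0.40, adjusted p = 0.0048). Ighv14-2 went the other way, by -3.05 (SE 0.71, adjusted p = 0.0144), with both salivary groups at background. These 3 called higher stood beside 0.319% of all probe sets and the single one called lower beside 2.61%. Leaving out salivary week 8 replicate 1 raised the total from 4 to 10, of which 9 were higher, and leaving out the lacrimal arrays with Amy1 above 8 lowered it to 1. For the Igkc group probe set 1427455_x_at the difference of 2.92 had an adjusted p of 0.103. Lacrimal Igha and Igkc values lay near the top of the scale, and its part in these differences was not tested.

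**Figure D3:**
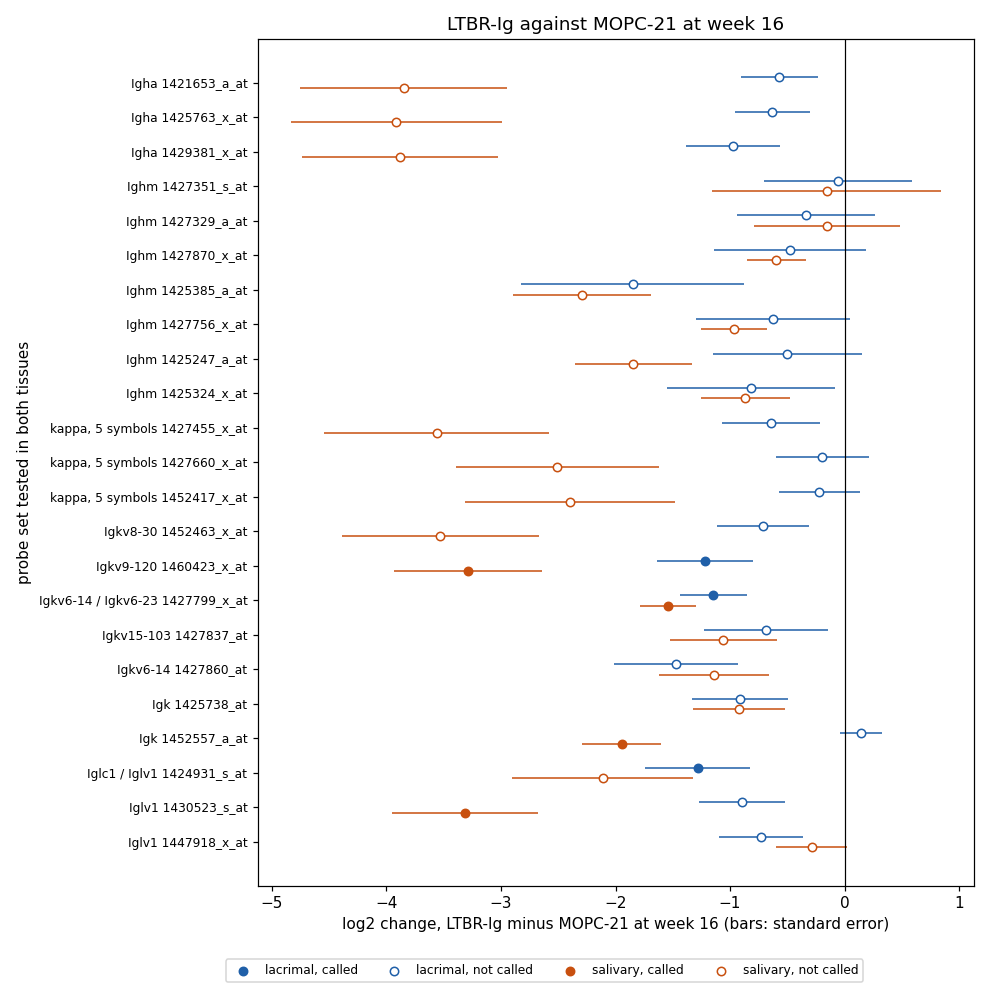
Log2 change, LTBR-Ig minus MOPC-21 at week 16, of the 23 immunoglobulin probe sets tested in both tissues (lacrimal blue, salivary orange); bars are standard errors and filled points are those called. The Igha changes were between -0.97 and -0.57 in lacrimal and between -3.91 and -3.85 in salivary gland, while Ighm 1427351_s_at was close to 0 in both. The salivary changes of the Ighm probe sets ran from -2.29 to -0.15, with no call.

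MOPC-21 was compared with no treatment to see the effect of injecting an antibody. By limma, 0 of the 56 were called in lacrimal gland at week 12 (0% of all tested; 5 with an unadjusted p under 0.05), 0 at week 16 (0%; 6) and 0 in salivary gland at week 16 (0%; 6). LTBR-Ig against MOPC-21 in lacrimal gland at week 12 also gave 0 called lower (0.0349% of all tested; 6). For Igha 1421653_a_at the salivary change with MOPC-21 at week 16 was -0.31 (interval -2.16 to 1.54), and such intervals leave room for changes of over 2-fold. The 7 Ighm probe sets tested in salivary gland had a median change of 1.09 with MOPC-21 at week 16 (range -0.06 to 1.84). Of these 7, 5 had an unadjusted p under 0.05 in limma, and in 3 the groups did not overlap. The share of all probe sets that did the same was not taken, so these counts are not read as a rise of Ighm.

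The 11 probe sets named Ighm did not move as a set. In lacrimal gland 1427351_s_at and 1427329_a_at were level across treatments, the latter with means of 12.34, 12.31 and 11.97 in NT, MOPC-21 and LTBR-Ig mice at week 16. Another 4, 1425247_a_at, 1425324_x_at, 1427756_x_at and 1427870_x_at, picked out after their values were seen, had higher group means in both injected groups than in untreated mice of the same week, with no call. Ighm 1425247_a_at was 3.21, 3.20, 3.22 and 3.19 in untreated mice at week 8, 5.17, 5.26 and 8.85 at week 12, 7.93, 7.28, 7.11 and 8.04 at week 14 and 8.93, 7.69, 8.40 and 10.19 at week 16. With MOPC-21 it was 10.44, 9.93, 8.73 and 8.98 at week 12 and 11.37, 9.36, 11.60 and 11.32 at week 16. With LTBR-Ig it was 9.15, 10.58, 8.61 and 9.44 at week 12 and 11.43, 9.47, 9.80 and 10.96 at week 16. The group means were above the untreated mean of the same week, but the arrays overlapped: at week 12 the highest untreated array, at 8.85, lay above the lowest array of each injected group, and at week 16 the highest, at 10.19, did so too.

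The changes of Ighm 1425247_a_at from untreated were 3.10 (SE 0.70, adjusted p = 0.511) with MOPC-21 and 3.02 (adjusted p = 0.140) with LTBR-Ig at week 12, and 2.11 and 1.61 at week 16. Over the 4 probe sets the changes with MOPC-21 were 2.37 to 3.10 at week 12 and 2.05 to 2.37 at week 16, and those with LTBR-Ig 2.15 to 3.02 and 1.42 to 1.77. None of the 4 was called, and the comparisons share their untreated arrays. Without lacrimal NT week 12 replicate 4, the array at 8.85, 4 of the 56 were called higher at week 12 with either protein. The untreated group then held only replicates 2 and 3, and replicate 2 had an Amy1 value of 12.5. For Ighm 1425247_a_at the array left out was the one that overlapped both injected groups. The share of all probe sets called without it is not given here, so these calls add no support. Ighm 1425385_a_at was the most variable, at 6.48, 11.86, 12.36 and 13.09 in lacrimal MOPC-21 arrays of week 16. Which Ighm sequences these probe sets bind was not given in the annotation used.

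**Figure D4:**
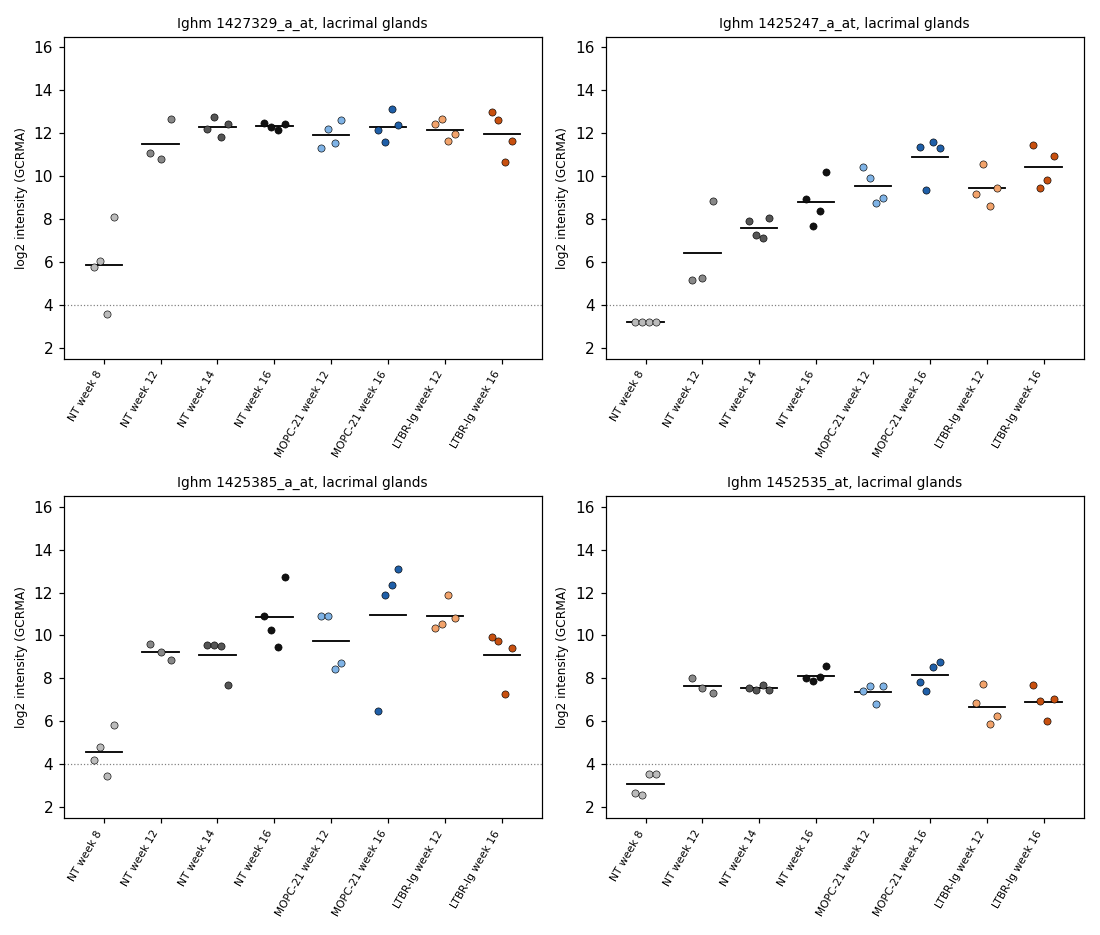
Log2 intensity of 4 probe sets named Ighm (1427329_a_at, 1425247_a_at, 1425385_a_at and 1452535_at) in each lacrimal array of the 8 groups; points are arrays and short lines group means. The first was level from week 12 on, the second had higher means in both injected groups than in untreated mice of the same week, with overlapping arrays and no call, the third was the most variable, and the fourth was lower with LTBR-Ig at week 16.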

How the data were processed

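Total RNA was labelled with the NuGEN Ovation system and hybridised to Affymetrix mouse genome arrays. The authors computed log2 expression values by GCRMA (version not given in the sources used here; no genome build named) and deposited them for 45101 probe sets on 61 arrays. They were used as deposited. Here each tissue was fitted with limma 3.58.1 in R 4.3.3, with a mean per group and an intensity trend, and both tissues together for comparisons between them. The test took in a probe set when some group had 2 or more arrays above 4, which left 20077 in lacrimal gland, 19617 in salivary gland and 21626 in the joint fit. Calls needed a fold of at least 2 and a Benjamini-Hochberg adjusted p under 0.05 over all tested. The study's methods select by fold and posterior probability, which was run as an alternative. The code was tested on simulated data.

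Symbols came from the platform annotation, which can be old: Ighm and Igk name probe sets with unlike patterns, and each probe set is given with its identifier. By rule, the brightest probe set of each class and the largest called changes were named, and others were named after their values were seen. The members and gene lists were chosen with earlier results of these data known. No 2 arrays were identical, with a highest correlation of 0.9965. The labels number the arrays but name no mouse, so p-values measure the spread between arrays. Their number limits the precision. Alternatives were another floor, no filter, array centring, no trend, fits on the compared groups, a replicate block and leaving out arrays.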

Additional observations from a re-analysis of the deposited data

Results flagged for a closer look

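In 140 combinations of a class's brightest probe set and a group of 4 arrays, a single array lay far from the other 3 in 18, with a gap over the group's range above Dixon's 95% critical value, and chance alone gives about 1 in 20. In salivary NT week 8 there were 4, all replicate 1 and all high: Ighm 1427351_s_at (ratio 0.874), Ighv14-2 1455530_at (0.922), Iglc1 with Iglv1 1424931_s_at (0.917) and Iglv1 1430523_s_at (0.939). In salivary NT week 12 replicate 3 was high for Igha 1421653_a_at, at 13.83 against 12.50 to 12.64 (0.893), the Igkc group 1427455_x_at (0.848) and Igkv8-30 1452463_x_at (0.91). In lacrimal LTBR-Ig week 12, Igha 1421653_a_at was 14.21 in replicate 1 against 14.84 to 14.95 (0.853).

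In lacrimal NT week 14 the arrays that stood apart were for Igkv8-30 1452463_x_at (0.889) and Iglv1 1430523_s_at (0.894), and in lacrimal MOPC-21 week 12 for Iglc1 with Iglv1 1424931_s_at (0.917). In salivary NT week 14 they were for Ighv14-2 1455530_at (0.882), Ighv1-72 with Ighm 1427851_x_at (0.853) and Igk 1425738_at (0.995). In salivary gland at week 16 they were for Ighg3 1427503_at with MOPC-21 (0.897) and LTBR-Ig (0.833) and for Iglc1 with Iglv1 1424931_s_at with MOPC-21 (0.844) and LTBR-Ig (0.922).

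The change with LTBR-Ig against MOPC-21 at week 16 differed between lacrimal and salivary gland, in a limma test of the difference itself, for Igha 1421653_a_at (3.28), Igha 1425763_x_at (3.28), Igk 1452557_a_at (2.09) and Ighv14-2 1455530_at (-3.05), as lacrimal minus salivary log2 change.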

How the results depend on the processing

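The counts of called immunoglobulin probe sets in untreated lacrimal gland at weeks 12 and 16 against week 8, in the lacrimal against salivary comparison at week 16 and in lacrimal LTBR-Ig week 16 against untreated week 8 stayed within 1.5 times the reported count under every alternative run. Centring array medians and dropping the trend moved no count past that limit. The counts that moved follow, and the cause was not tested. For lacrimal LTBR-Ig against MOPC-21 at week 16 (6), the posterior probability rule, the fit on only the groups compared and leaving out arrays with Amy1 above 8 each gave 0, and against untreated (10) they gave 1 under the posterior rule and 0 without the Amy1 arrays. For salivary LTBR-Ig against MOPC-21 at week 16 (4), a floor of 6 gave 0, no filter 0, the posterior rule 2, only the groups compared 12, and leaving out salivary NT week 8 replicate 1, added after seeing the data, 11; against untreated (5) the counts were 3 with a floor of 6, 13 with only the groups compared and 11 without that array. At week 12 that array's removal gave 1 for salivary LTBR-Ig against MOPC-21. Salivary week 12 against week 8 (14) gave 9 with a floor of 6 and 9 under the posterior rule. Lacrimal against salivary gland at week 8 (10) gave 1 under the posterior rule and 2 with only the groups compared. The difference of effects between glands (4) gave 2 with no filter, 1 under the posterior rule, 11 with only the groups compared, 1 without the Amy1 arrays and 10 without week 8 replicate 1.

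Within a tissue, replicate numbers did not pair the arrays of different groups: the median correlation of deviations at the same number was 0.02 in lacrimal and 0.006 in salivary gland. Between the lacrimal and salivary array of the same week, treatment and number it was 0.003 (29 pairs). The labels do not say whether such a pair came from a single mouse, and the main joint fit took its arrays as independent. With a replicate block, the week 16 counts of LTBR-Ig against MOPC-21 were 1 in salivary and 6 in lacrimal gland, and the block moved no other count by over 1.5 times.

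Leaving out each array of the groups compared gave 1 to 13 for lacrimal LTBR-Ig against MOPC-21 at week 16 (1 without LTBR-Ig or MOPC-21 replicate 3, 2 without MOPC-21 replicate 4, 3 without LTBR-Ig replicate 2, 11 without MOPC-21 replicate 2, 13 without LTBR-Ig replicate 1) and 0 to 14 against untreated (0 without untreated replicate 4, 1 without LTBR-Ig replicate 3). The ranges were 0 to 3 for salivary LTBR-Ig against MOPC-21, 1 to 6 for the difference of effects, 8 to 13 for lacrimal against salivary gland at week 8, and 0 to 4 for lacrimal MOPC-21 and LTBR-Ig against untreated at week 12. They were 30 to 35 and 35 to 37 for lacrimal weeks 12 and 16 against week 8, 31 to 33 for LTBR-Ig week 16 against week 8, 12 to 16 and 14 to 18 for the salivary weeks, and 31 to 35 for the glands at week 16. Ighm 1427351_s_at, not called, changed sign in lacrimal LTBR-Ig against MOPC-21, to 0.70 without the Amy1 arrays and within -0.37 to 0.36 without single arrays, and in salivary gland it ran from -0.63 to 0.53 without single arrays. Signal near background and near the top of the scale limits the folds.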
